A study of Homo sapiens with 4 samples.

Results

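The 10 Krüppel-like factors KLF2, KLF3, KLF4, KLF5, KLF6, KLF7, KLF9, KLF10, KLF11, and KLF13 were followed in TPC1 cells between 6 h and 24 h of RET inhibition. They were found by their gene symbols among the 20372 genes of the deposited count table, and 10 of the 10 had enough reads to be among the 12876 genes tested. TPC1 is a human cell line from a papillary thyroid carcinoma with a CCDC6-RET fusion, and BLU6864 is a selective inhibitor of the RET kinase. All 4 libraries came from TPC1 cells grown in DMEM with FBS and exposed to BLU6864, in 1 group for 6 h and in the other for 24 h, with 2 libraries in each group. The dose is 100 µM on the labels but 100 nM in the methods of the study, and the 24 h libraries are marked as re-analysed. Vehicle-treated cells were not analysed here, so each difference is between the durations of treatment and cannot be told apart from time in culture. Nor can it be told apart from whatever the mark of re-analysis, carried by the 24 h libraries only, stands for. Nothing in the labels says that the libraries of a group came from separate cultures, so the P values measure only the spread between these libraries.

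Krüppel-like factors are transcription factors that bind GC-rich and CACCC-containing DNA through a C-terminal set of C2H2 zinc fingers shared with the SP factors. Outside the zinc fingers they differ. KLF3, KLF8, and KLF12 recruit the corepressor CtBP. KLF1, KLF2, KLF4, KLF5, KLF6, and KLF7 act mainly as activators, several of them with acetyltransferases. KLF9, KLF10, KLF11, KLF13, KLF14, and KLF16 carry a motif that binds the corepressor SIN3A. Several members are induced within minutes to hours by serum, growth factors, TGF-β, flow, or steroid hormones, and the family takes part in growth arrest, differentiation, and cell survival.

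Total counts lay between 23917056 and 27457040 per library, and libraries of a time point correlated with a Spearman coefficient of at least 0.998. The thyroid origin on the label was only partly visible in the transcripts. PAX8, a thyroid transcription factor, had between 19124 and 22978 raw counts and FOXE1 between 273 and 556, while TSHR and NKX2-1 had 0 counts in all libraries and thyroglobulin (TG) between 98 and 245. Of the 5 epithelial markers, KRT8, KRT18, and KRT19 had more than 3 counts in every library, and EPCAM and CDH1 had at most 11. KRT19 had 100 and 125 raw counts at 6 h and 37 and 40 at 24 h and was called lower (log2 fold change -1.59), and KRT8 and KRT18, at -0.05 and 0.37, were not called. EPCAM had 11 and 6 counts at 6 h and 1 in each library at 24 h. Of the 5 blood cell markers, CD14 was over 3 counts in every library, and PTPRC had at most 5. Of the 5 fibroblast markers, COL1A1 and LUM were over 3 counts in every library, and COL1A2 had 0. Summed, the fibroblast markers were between 10.4 and 10.9 CPM at 6 h and between 5.56 and 6.10 CPM at 24 h, although COL1A1 was called lower (log2 fold change -1.57) and LUM higher (0.75). CD14, called higher (log2 fold change 0.95), held most of the counts of the blood cell markers in every library. Summed, the blood cell markers were between 1.72 and 1.98 CPM at 6 h and between 3.42 and 3.50 CPM at 24 h. Their part in the results was not tested.

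As a group, the factors split. KLF2, KLF4, KLF5, and KLF9 fell between 6 h and 24 h, by 5.49-fold, 3.59-fold, 1.71-fold, and 1.73-fold of their mean normalized counts. KLF6, KLF10, KLF11, and KLF13 rose, to 1.81, 1.51, 1.76, and 1.83 times their level at 6 h. KLF3 and KLF7 did not meet the limits. A gene was called, here and throughout, if its log2 fold change passed 0.5 in either direction with an unadjusted P under 0.01 in edgeR's quasi-likelihood test over all genes, which are the limits of the study's methods applied in either direction. By this rule 4 of the 10 members were higher and 4 lower, where 17.4% of all genes tested were higher and 17.7% lower. Both 24 h libraries lay above both 6 h libraries in 5 members and below them in 5, and the groups were separated in this way in 81.8% of all genes tested. The median log2 fold change of the 10 members was 0.10, beside 0.0029 for all genes tested. In bulk RNA, fewer cells that express a gene and less RNA per cell cannot be told apart.

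The DNA just upstream of the start site is shown for the 5 members that have a single start in the RefSeq promoter table, 3 of which fell (KLF2, KLF4, KLF9) and 2 of which rose (KLF6, KLF13). Each sequence is the 250 bases before the start on GRCh38.p14, written in the direction of transcription. Capitals mark the GC box GGGCGG on either strand, a motif that SP and KLF proteins themselves can bind, and the E-box CACGTG, bound by MYC-, USF-, and CLOCK-type factors.
KLF2, chr19:16324576-16324825, plus strand: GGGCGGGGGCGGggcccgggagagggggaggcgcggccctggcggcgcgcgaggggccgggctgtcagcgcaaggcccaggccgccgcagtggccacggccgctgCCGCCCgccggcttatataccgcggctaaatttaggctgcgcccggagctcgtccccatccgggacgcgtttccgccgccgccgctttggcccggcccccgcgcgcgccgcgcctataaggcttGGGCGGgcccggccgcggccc
KLF4, chr9:107489770-107490019, minus strand: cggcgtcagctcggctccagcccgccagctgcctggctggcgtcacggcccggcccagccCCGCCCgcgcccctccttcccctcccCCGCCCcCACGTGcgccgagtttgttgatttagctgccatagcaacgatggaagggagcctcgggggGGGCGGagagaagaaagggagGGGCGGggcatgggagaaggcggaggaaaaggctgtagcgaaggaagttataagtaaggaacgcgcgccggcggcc
KLF9, chr9:70414658-70414907, minus strand: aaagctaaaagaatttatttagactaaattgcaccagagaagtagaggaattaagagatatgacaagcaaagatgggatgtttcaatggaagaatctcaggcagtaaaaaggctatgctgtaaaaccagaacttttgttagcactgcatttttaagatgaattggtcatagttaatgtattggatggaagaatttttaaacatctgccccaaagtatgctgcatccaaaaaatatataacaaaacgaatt
KLF6, chr10:3785210-3785459, minus strand: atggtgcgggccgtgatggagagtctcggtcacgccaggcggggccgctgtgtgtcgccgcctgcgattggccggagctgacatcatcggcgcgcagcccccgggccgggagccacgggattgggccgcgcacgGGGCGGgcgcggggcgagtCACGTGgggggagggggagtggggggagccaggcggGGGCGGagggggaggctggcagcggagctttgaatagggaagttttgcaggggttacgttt
KLF13, chr15:31326585-31326834, plus strand: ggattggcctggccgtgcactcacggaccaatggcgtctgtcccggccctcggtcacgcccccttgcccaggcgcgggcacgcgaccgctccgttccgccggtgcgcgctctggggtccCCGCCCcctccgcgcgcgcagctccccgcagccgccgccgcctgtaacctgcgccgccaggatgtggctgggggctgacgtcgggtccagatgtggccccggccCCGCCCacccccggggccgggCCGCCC

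The KLF2 and KLF4 windows each held 4 GC boxes, that of KLF13 held 3, that of KLF6 held 2, and that of KLF9 held 0. The E-box was found once in the KLF4 window and once in the KLF6 window, so it was present beside a factor that fell and beside one that rose. Among the 5 windows shown, that of KLF9 stood apart with 32.4% G and C, where KLF2 had 80.0%, KLF13 78.8%, KLF6 72.4%, and KLF4 69.2%. Some windows not shown were also low, KLF5 at 40.8% and KLF7 at 41.6% and 43.2%. The other windows of KLF5 and KLF7 were between 58.0% and 72.0%. The median of all 35116 windows of the table was 58.0%. Among these windows, 42.6% held a GC box and 6.34% an E-box on either strand. Shorter motifs were also searched on either strand. TGACG, the core of a cyclic AMP response element, occurred 2 times in the KLF4 window and once in that of KLF13, and the KLF2, KLF6, and KLF9 windows had 0, beside 21.2% of all windows with a match. CCAAT occurred 2 times each in the KLF6, KLF9, and KLF13 windows and 0 times in those of KLF2 and KLF4, beside 32.01% of all windows. CACCC was seen once, at KLF13, beside 54.7% of all windows. These matches are descriptions of the letters in the windows only. KLF5, KLF7, and KLF11 have several starts in the table, and KLF3 and KLF10 are named only.

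KLF2, on chromosome 19 of hg19 from 16435628 to 16438685 (ENSG00000127528), showed the largest change of the 10. KLF2 is known as a flow-responsive factor of endothelial cells and as a regulator of quiescence and trafficking in lymphocytes. At 6 h its libraries held 682 and 586 normalized counts, and at 24 h they held 105 and 127. The lower 6 h library was thus still far above both 24 h libraries, and the libraries of each group differed little beside that gap. The log2 fold change was -2.45 (standard error [SE] 0.122, adjusted P = 9.51e-16 in edgeR), which placed KLF2 at percentile 2.55 of all genes tested when ordered from the largest fall to the largest rise.

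KLF4, on chromosome 9 from 110247133 to 110252763 (ENSG00000136826), is a factor of epithelial differentiation and of induced pluripotency, and it often responds to the same stimuli as KLF2. It had 559 and 543 normalized counts at 6 h and 151 and 156 at 24 h. The libraries of each time point were nearly equal, with SDs of 11.4 and 3.02 (n = 2), and the groups did not overlap. The log2 fold change was -1.84 (SE 0.109, adjusted P = 3.76e-14 in edgeR), at percentile 3.79 of all genes tested.

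KLF5, on chromosome 13 from 73629114 to 73651676 (ENSG00000102554), a factor of proliferating basal epithelium and of smooth muscle remodelling, had the lowest counts of the 10, not divided by length, with 137 and 145 normalized counts at 6 h and 88.7 and 75.9 at 24 h. Both 24 h libraries were lower. The log2 fold change of -0.78 had the largest standard error of the 10 (0.162), with an edgeR adjusted P of 0.000151.

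KLF6 and KLF7, close relatives of each other, complete the activator group. KLF6, on chromosome 10 from 3818188 to 3827473 (ENSG00000067082), a growth-restraining factor that is frequently altered in tumors, was the most abundant member, with 6416 and 6585 normalized counts at 6 h and 11905 and 11644 at 24 h. The 24 h libraries lay well above the 6 h libraries, and the log2 fold change was 0.86 (SE 0.0737, adjusted P = 9.28e-11 in edgeR). KLF7, on chromosome 2 from 207938861 to 208031991 (ENSG00000118263), a factor of neuronal outgrowth and of adipocyte precursors, had 328 and 341 normalized counts at 6 h and 276 and 311 at 24 h. Both 24 h values were the lower ones, but the gap was small, with a log2 fold change of -0.19 (SE 0.108, adjusted P = 0.130 in edgeR). Of the 6 factors of the activator group, KLF1 had too few counts to be tested, and of the other 5, 1 rose and 3 fell, where 17.4% of all genes tested rose and 17.7% fell.

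**Figure D1:**
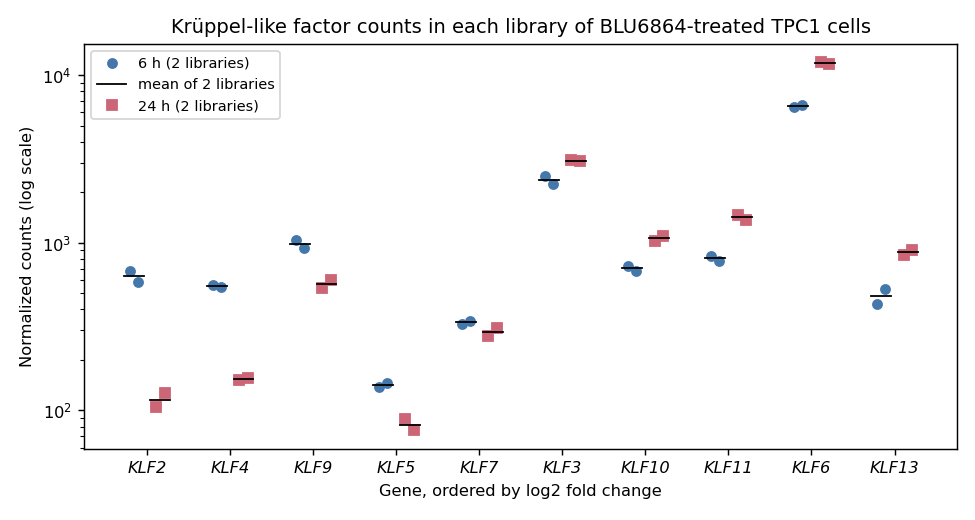
Normalized counts of the 10 Krüppel-like factors on a log scale, with 1 point for each library (circles, 6 h; squares, 24 h) and a line at the mean of the 2 libraries of a time point. Genes run from the largest fall at the left, KLF2, with 105 and 127 counts at 24 h below 682 and 586 at 6 h, to KLF13 at the right, and the 2 time points do not overlap in any of the 10.

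Next come the SIN3A-binding factors. KLF10 and KLF11, the TGF-β-inducible early genes, are repressors of growth that also act within the TGF-β pathway. KLF10, on chromosome 8 from 103661007 to 103668130 (ENSG00000155090), had 730 and 679 normalized counts at 6 h and 1024 and 1097 at 24 h. The change of 0.59 on the log2 scale (edgeR adjusted P = 4.99e-07, standard error 0.0816) was the closest of the called members to the limit of 0.5, and leaving out any single library kept it between 0.54 and 0.65. KLF11, on chromosome 2 from 10182976 to 10194963 (ENSG00000172059), known also for its role in pancreatic islets, had 832 and 783 at 6 h and 1472 and 1375 at 24 h. The groups were apart by several times the spread within them, and the log2 fold change was 0.82 (SE 0.0773, adjusted P = 5.76e-10 in edgeR).

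KLF13, on chromosome 15 from 31619058 to 31727868 (ENSG00000169926), a regulator of the chemokine CCL5 in T cells and of heart development, rose about as much as KLF6. It had 429 and 531 normalized counts at 6 h and 848 and 903 at 24 h. The 6 h libraries differed more from each other than those of most other members, yet both stayed below the 24 h libraries. The log2 fold change was 0.86 (SE 0.0952, adjusted P = 1.02e-08 in edgeR), and it ranged from 0.72 without 6 h replicate 1 to 1.03 without 6 h replicate 2, where KLF6 was at 0.84 and 0.87.

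KLF9, on chromosome 9 from 72999503 to 73029540 (ENSG00000119138), is induced by glucocorticoid and thyroid hormone and is tied to the circadian clock. It was the only SIN3A-binding factor of the 5 tested that fell. Its normalized counts were 1042 and 925 at 6 h and 538 and 596 at 24 h. Both 24 h libraries lay well below the 6 h libraries, with a log2 fold change of -0.79 (SE 0.0881, adjusted P = 1.19e-08 in edgeR). KLF16, which was not among the 10 members, completes the group and rose from 484 ± 23.6 to 847 ± 90.4 normalized counts (SD, n = 2), a log2 change of 0.81 (adjusted P = 2.03e-08 in edgeR). KLF14 had 0 counts in all libraries. Of the 5 tested factors of the SIN3A-binding group, 4 rose and 1 fell, where 17.4% of all genes tested rose and 17.7% fell, and 4 of these 5 are among the 10 members.

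Among the CtBP-binding repressors, KLF3, on chromosome 4 from 38665817 to 38702663 (ENSG00000109787), a repressor studied in erythroid and fat cells, had 2498 and 2236 normalized counts at 6 h and 3098 and 3072 at 24 h. Both 24 h libraries were higher, but the log2 fold change of 0.38 (SE 0.0728, adjusted P = 5.05e-05 in edgeR) was under the limit of 0.5, so KLF3 passed on P and not on size. By an adjusted P under 0.05 with no limit on size, 5 members were higher, KLF3 among them, and 4 lower, where 33% of all genes tested were higher and 32.6% lower. KLF12 had 453 ± 1.04 normalized counts at 6 h and 433 ± 32.5 at 24 h (SD, n = 2), with overlapping libraries. KLF8 had 0 counts. The position of KLF3 overlaps that of AC021860.1 in the table, which had at most 19 counts in a library. In GENCODE v44, exons of KLF3 overlap KLF3-AS1 on the opposite strand, and exons of KLF4, KLF7, and KLF11 overlap opposite-strand transcripts as well. The counting is not stated to use strand, so their reads cannot be told apart.

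KLF2 moved from rank 4 of the 10 at 6 h to rank 8 at 24 h when levels were compared per length, and KLF4 was at rank 7 at both times. Levels were taken as normalized counts per kb of the MANE Select transcript of GENCODE v44. At 6 h the order was KLF6 (1416 ± 26.1), KLF3 (423 ± 33.1), KLF10 (242 ± 12.3), KLF2 (225 ± 24.1), KLF11 (200 ± 8.66), KLF9 (189 ± 15.9), KLF4 (188 ± 3.90), KLF13 (70.1 ± 10.5), KLF5 (42.1 ± 1.64), and KLF7 (40.0 ± 1.05), each as normalized counts per kb (SD, n = 2). The libraries of KLF10 and KLF2 overlapped, as did those of KLF11 and KLF9 and those of KLF9 and KLF4, so these neighbors were not ordered beyond their spread. At 24 h the order was KLF6 (2565 ± 40.2), KLF3 (552 ± 3.32), KLF10 (364 ± 17.6), KLF11 (353 ± 16.9), KLF13 (128 ± 5.71), KLF9 (109 ± 7.83), KLF4 (52.3 ± 1.03), KLF2 (41.0 ± 5.49), KLF7 (35.1 ± 2.995), and KLF5 (24.6 ± 2.695) normalized counts per kb. Here KLF10 overlapped KLF11, and KLF2 overlapped KLF7.

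The makeup of the summed level changed with these moves. The 10 members together summed to 3076 and 2994 normalized counts per kb at 6 h and to 4239 and 4207 at 24 h. KLF6 held 45.4% and 47.9% of that sum at 6 h and 61.2% and 60.3% at 24 h. KLF2 and KLF4 together held 14.1% and 13.1% at 6 h and 2.09% and 2.33% at 24 h. Per kb, KLF6 was 5.78 and 6.90 times KLF2 at 6 h and 69.9 and 56.5 times KLF2 at 24 h. These shares are descriptions, and with 2 libraries in each group an exact two-sided permutation test of a single value cannot go below P = 0.333.

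**Figure D2:**
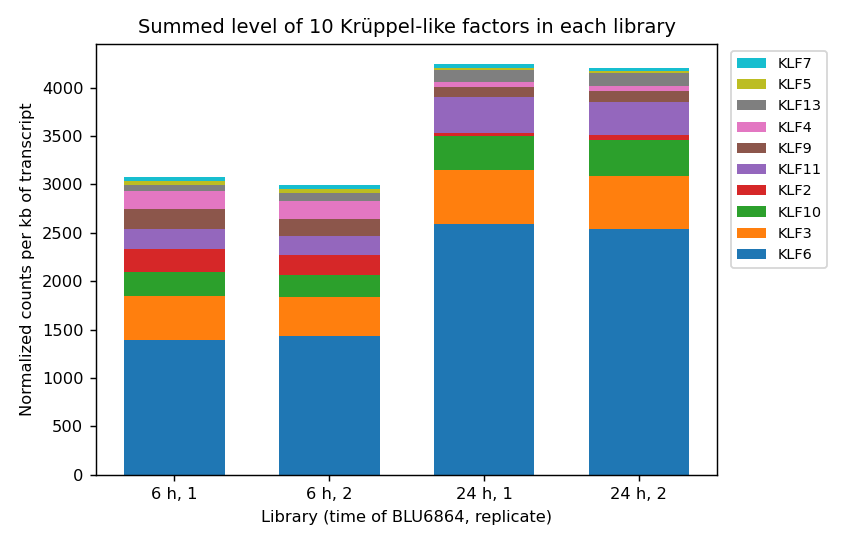
Stacked bars of normalized counts per kb of transcript for the 10 Krüppel-like factors in each of the 4 libraries, from 0. The bars reach 3076 and 2994 at 6 h and 4239 and 4207 at 24 h, and the KLF6 segment widens from 45.4% and 47.9% of the bar to 61.2% and 60.3%.

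Of 8 other KLF genes listed, 7 were in the table and 4 had enough counts to be tested, with 1 called higher (KLF16) and 1 lower, where 17.4% of all genes tested were higher and 17.7% lower. The lower gene was KLF17, a factor of early embryos, with 35.0 ± 2.12 normalized counts at 6 h and 16.7 ± 2.51 at 24 h (SD, n = 2), a log2 fold change of -1.06 (SE 0.311, adjusted P = 0.00417 in edgeR). KLF17 was not called with DESeq2, nor without 24 h replicate 1 (-0.91) or without 6 h replicate 2 (-0.998). KLF15, a metabolic regulator of muscle and liver, had between 9 and 16 raw counts and did not differ beyond its error (log2 fold change -0.29, standard error 0.449). KLF1, the erythroid factor, had at most 1 count in a library, and KLF18 was not analysed here.

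The SP factors share the DNA-binding fingers, and 5 of 9 were tested. SP1 and SP3, the ubiquitous and most abundant of them, had log2 fold changes of -0.09 and -0.17, with standard errors of 0.0700 and 0.0714. SP2 had a log2 change of 0.33 (adjusted P = 0.00489 in edgeR) and SP6, with at most 48 raw counts, -0.70 (SE 0.277, adjusted P = 0.0292 in edgeR), and neither was called. SP4, at 319 ± 7.17 normalized counts at 6 h and 223 ± 12.3 at 24 h (SD, n = 2), was the 1 SP gene called lower, with a log2 fold change of -0.51 at the limit, and it was not called with upper quartile scaling, without 24 h replicate 1 (-0.45), or without 6 h replicate 1 (-0.49). Without 6 h replicate 2, SP4 and SP6 were both called, SP6 at -0.96. Of the 14 KLF genes tested 5 rose and 5 fell, and with the SP genes 5 of 19 rose and 6 fell, where 17.4% of all genes tested rose and 17.7% fell.

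**Figure D3:**
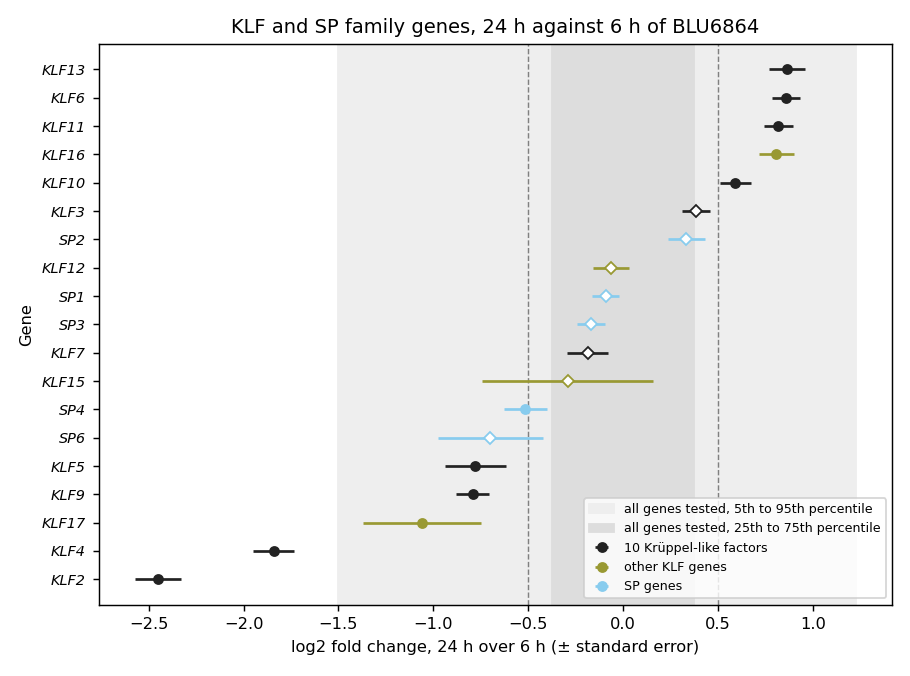
Log2 fold changes of 24 h over 6 h for the 19 tested KLF and SP genes, with bars of the standard error, filled circles for called genes, and open diamonds for genes not called. Dashed lines mark the limits of 0.5 in either direction, and shading marks the middle of all genes tested. KLF2 (-2.45) and KLF4 (-1.84) lie below the 5th percentile of all genes, which is at -1.50, and no family gene reaches the 95th percentile, at 1.23.

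Few genes for proteins that KLF factors act with passed the limits on both size and P. By an edgeR adjusted P under 0.05 with no limit on size, 4 of the 11 cofactor genes were higher and 3 lower. By that rule 33% of all genes tested were higher and 32.6% lower. Of 11 cofactor genes, 1 was called higher and 0 lower, where 35.1% of all genes tested were called in either direction, with a median log2 fold change of -0.02. The called gene was CTBP2, a CtBP corepressor of KLF3, KLF8, and KLF12, which rose from 2133 ± 114 to 3224 ± 94.7 normalized counts (SD, n = 2), a log2 change of 0.60 (adjusted P = 4.81e-08 in edgeR). Its relative CTBP1, named after its value was seen, was just under the limit at 0.50 (adjusted P = 5.74e-07 in edgeR). SIN3A had a log2 fold change of -0.25 and SIN3B of 0.50, neither of them called. SIN3A, SIN3B, and FHL3 (-0.48) passed on P and not on size. The count of higher cofactors was 4 without 24 h replicate 1 and 2 without each of the other libraries in turn, and 1 cofactor, FHL3, was lower without 24 h replicate 2 or 6 h replicate 2. SIN3A, SIN3B, and FHL3 were likewise chosen after their values were seen.

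Of 17 known regulators of KLF genes, 2 were called higher and 3 lower, where 35.1% of all genes tested were called in either direction, and their median was -0.08. MEF2C, a MADS-box factor that acts below the kinase ERK5 (MAPK7) on KLF2 and KLF4, had 269 and 293 raw counts at 6 h, against 69 and 57 at 24 h. Both 24 h values were far lower, and the log2 fold change was -2.20 (SE 0.150, adjusted P = 8.50e-13 in edgeR). MAPK7 and MEF2A had log2 fold changes of 0.39 and 0.39, and MEF2D of 0.03, none of them called. MAPK7 and MEF2A passed on P and not on size (adjusted P = 0.000856 and 2.35e-05 in edgeR), and MEF2D on neither (adjusted P = 0.742 in edgeR). THRB, a thyroid hormone receptor, rose from 172 ± 9.27 to 541 ± 2.73 normalized counts (SD, n = 2), a log2 change of 1.66 (adjusted P = 2.87e-13 in edgeR). SMAD3, a transducer of TGF-β, rose as well, with a log2 change of 1.32 (adjusted P = 2.81e-14 in edgeR), whereas TGFBR2 and FOXO1 were called lower, at -0.54 and -0.52, FOXO1 not with upper quartile scaling, without 24 h replicate 1, or without 6 h replicate 1. MAPK7, MEF2A, MEF2D, SMAD3, TGFBR2, and FOXO1 were named after their values were seen.

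Like KLF9, most of the other genes tested that glucocorticoids induce were called lower, but not all. Of 6 such genes, 5 were tested, and 4 fell, where 17.7% of all genes tested fell, with a median log2 fold change of -0.93 for the 5. FKBP5, a cochaperone of the glucocorticoid receptor, had 388 ± 1.47 normalized counts at 6 h and 154 ± 2.31 at 24 h (SD, n = 2), a log2 change of -1.33 (adjusted P = 1.11e-10 in edgeR). DUSP1, SGK1, and PER1, the remaining genes that fell, had log2 fold changes of -1.12, -0.93, and -0.70. TSC22D3 went the other way, at 0.39 (adjusted P = 0.000804 in edgeR). It passed on P and not on size, so it was not called. The receptor gene NR3C1 had a log2 fold change of -0.44 and was called without 6 h replicate 2 (-0.51) but not with all libraries. DUSP1, SGK1, PER1, TSC22D3, and NR3C1 were named after their values were seen. DUSP1 and PER1 also respond to other stimuli. The part of glucocorticoids in these changes was not tested.

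Of 6 genes for ubiquitin ligases that act on KLF proteins, 1 was called, where 35.1% of all genes tested were called in either direction. FBXO32, the muscle atrophy ligase atrogin-1, fell from 4541 ± 52.9 to 2037 ± 73.3 normalized counts (SD, n = 2), a log2 change of -1.16 (adjusted P = 1.02e-13 in edgeR). The median of these 6 genes was 0.02.

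Of 13 genes known as KLF targets in other cells, 10 were tested, of which 3 were called higher and 3 lower, where 17.4% of all genes tested were higher and 17.7% lower, with a median log2 fold change of -0.01. THBD, which encodes thrombomodulin and is activated by KLF2 and KLF4 in endothelium, had 405 and 491 raw counts at 6 h, against 129 and 102 at 24 h. The groups were wide apart, with a log2 fold change of -1.997 (SE 0.127, adjusted P = 1.95e-13 in edgeR). S1PR1, a KLF2 target of T cells, changed in the opposite direction, from 97.3 ± 4.82 to 206 ± 7.72 normalized counts (SD, n = 2) and with a log2 change of 1.08 (adjusted P = 2.80e-07 in edgeR). The genes CCND1 and SMAD7 were also called higher, at 0.73 and 0.99, and CDKN1A and LGALS3 lower, at -0.53 and -0.61, CDKN1A not with upper quartile scaling. CCND1, SMAD7, CDKN1A, and LGALS3 were named after their values were seen. NOS3, a KLF2 target of endothelium, had 0 counts. The list was not divided by factor or by direction of control, so its counts and median do not measure a response of KLF targets.

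Endothelial cells, in which KLF2 and KLF4 are prominent, were looked for by 5 markers, of which 4 were in the table. KDR had 485 and 517 raw counts at 6 h and 44 and 22 at 24 h, and VWF 16 and 11 at 6 h and 3 and 5 at 24 h. These 2 genes fell with KLF2 and KLF4. CDH5, which defines endothelium, had at most 1 count in a library, and TEK at most 8. KDR held most of the counts of these markers in every library. The summed level of the markers was between 19.7 and 21.0 CPM at 6 h and between 1.08 and 2.09 CPM at 24 h. The part of such cells in the fall of KLF2 and KLF4 was not tested beyond these counts.

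**Figure D4:**
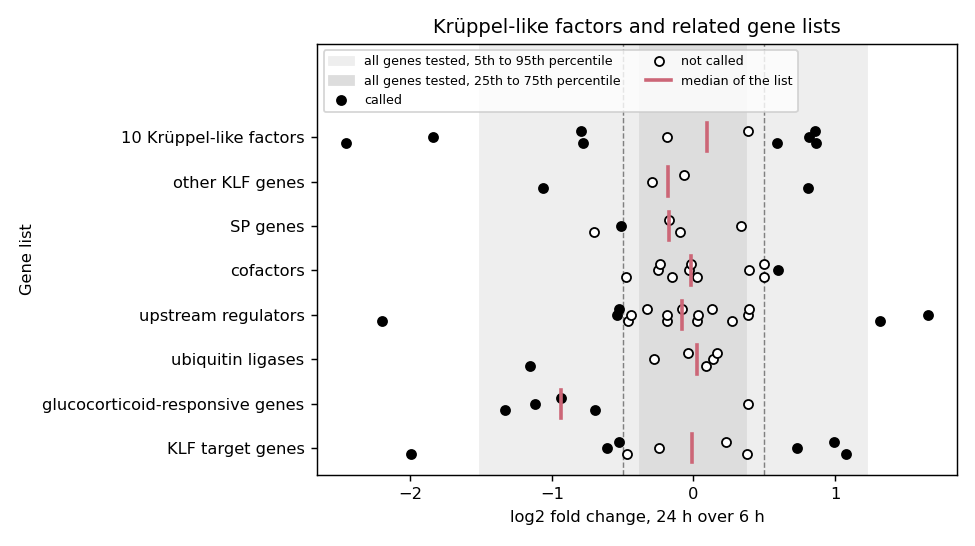
Log2 fold changes of 24 h over 6 h for the tested genes of the 10 factors and the 7 related lists (cell type markers are not plotted), with filled circles for called genes, open circles for genes not called, a vertical bar at the median of the list, and shading for the middle of all genes tested. The glucocorticoid-responsive genes have a median of -0.93, and the medians of the other plotted lists lie between -0.18 and 0.10.

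The calls of the 10 factors did not depend on single settings among those tried. Under 11 alternatives of test, scaling, filter, replicate block, and left-out library, 4 members were called higher and 4 lower each time. KLF2 ranged from -2.59 to -2.31 and KLF4 from -1.88 to -1.81, and the reach of KLF6 was 0.81 to 0.89. KLF13 had a range of 0.72 to 1.03 and KLF5 of -0.89 to -0.66, mostly through the left-out libraries.

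**Figure D5:**
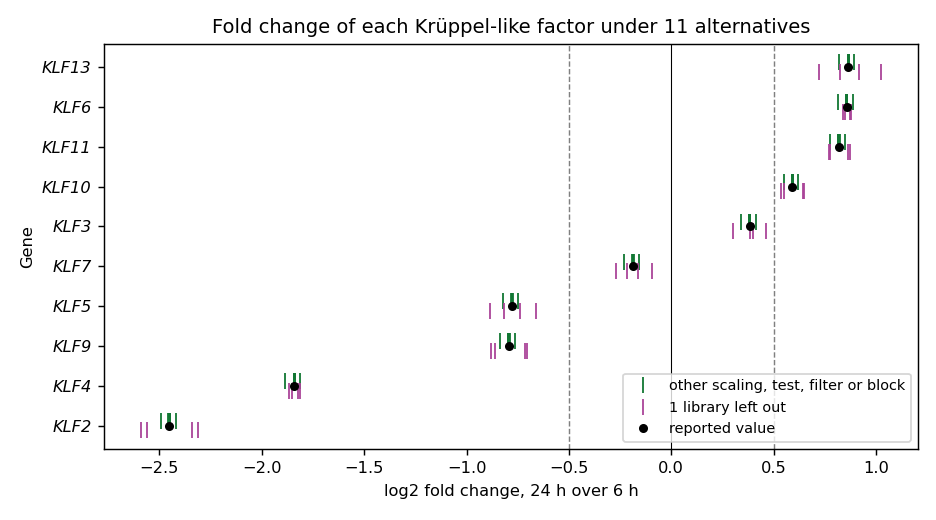
Log2 fold change of each Krüppel-like factor as reported (black points), under 7 other scalings, tests, filters, and a replicate block (upper ticks), and with 1 library left out in turn (lower ticks). Dashed lines mark the limits of 0.5 in either direction. No tick crosses 0, and KLF10 comes nearest to the limit among the called genes, at 0.54.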

How the data were processed

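Gene expression was measured by RNA sequencing in 4 libraries. The authors aligned reads to hg19 with STAR (version 2.3 in the processing notes, another version in the methods) and deposited raw counts per gene. The counting program and its strand setting are not given in the sources used here. The labels describe single-end reads and the methods paired-end reads. The table also holds a signal that the authors deposited, which is each count divided by a size factor, with its mean. The DESeq2 comparison by the authors, deposited as log2 fold changes, a Wald score, and P values, was not used. Columns of sample values left unmatched numbered 0.

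The quasi-likelihood test of edgeR 4.0.16 (R 4.3.3) was fitted to the counts with time as the factor, after filterByExpr and TMM. Adjusted P is Benjamini-Hochberg adjusted over 12876 genes. Normalized counts are counts over TMM-scaled library size, scaled to the mean library. Standard errors were derived from the fold change and F. No set test was run. Promoter sequences are from RefSeq (GRCh38.p14) and were matched by symbol for 8 of the 10 members. Transcript lengths were matched by Ensembl identifier. Hg19 positions were not mixed with GRCh38.

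The named genes were the 10 members, the tested KLF and SP genes, and the called gene with the largest rise and fall in each other list. Markers were named with their lists. The members and lists were chosen with earlier results of these data known. Libraries of a group differed by more than counting noise (chi-square per degree of freedom of 7.97 and 10.5), so neither pair was treated as repeats of 1 library. This does not show that they came from separate cultures. On simulated data of this comparison, 12746 genes were tested. Of these, 100 were changed by a log2 fold change of 1 and 100 by 2. edgeR called 97.0% of the former and 100% of the latter, and 8.37% of its calls were genes that had not been changed. DESeq2, which tested 12876 genes there, called 94.0% of the former and 98.0% of the latter. Of its calls, 0% were genes that had not been changed. Such shares of unchanged genes depend on how many genes change. In the real data 35.1% of all genes tested were called, so these shares do not carry over. Changes smaller than 1, like those of KLF5, KLF6, KLF9, KLF10, KLF11, and KLF13, were not simulated. Alternatives were DESeq2 1.42.0, other scalings and filters, a replicate block, and each library left out.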

Additional observations from a re-analysis of the deposited data

How the results depend on the processing

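For the Krüppel-like factors, 4 members were called higher and 4 lower under DESeq2, library size alone, upper quartile scaling, DESeq2-type size factors in edgeR, a minimum of 10 counts in every library, no filter, the replicate block, and each library left out in turn, where the counts ranged from 4 to 4 in each direction. The lone library of a group is assumed there to vary like the others. With an adjusted P under 0.05 and no limit on the fold, 5 members were higher, with KLF3 added, and 4 lower. No member changed direction. In the other lists, DESeq2 left 0 lower genes among the other KLF genes in place of 1, library size alone gave 1 lower cofactor in place of 0, and upper quartile scaling gave 3 higher cofactors in place of 1 and 0 lower SP genes in place of 1. Over these lists, library size alone added the calls of CLOCK (-0.46 as reported) and FHL3 (-0.48), and upper quartile scaling added CTBP1 (0.50) and SIN3B (0.50) and removed SP4 (-0.51), FOXO1 (-0.52), and CDKN1A (-0.53), all 7 of them near the limit of 0.5. DESeq2 removed KLF17. The filters and left-out libraries were applied to these lists after seeing the data. Higher cofactors then numbered 2 with no filter and 3 with at least 10 counts in every library. With each library left out, higher cofactors ranged from 2 to 4, lower cofactors from 0 to 1, lower SP genes from 0 to 2, and lower other KLF genes from 0 to 1. Of the named genes of these lists, KLF12 (-0.135 to 0.018) and KLF15 (-0.566 to 0.0844) changed sign with a library left out, and neither was called. The cause of these changes was not tested. Scaling moved the median of all genes from 0.0029 to -0.040 (library size alone) and 0.033 (upper quartile scaling). The replicate numbers 1 and 2 are shared by the time points, but nothing says what they mark, and the deviations of same-numbered libraries correlated at 0.0757 across genes. With the replicate block, 2283 genes of all were higher and 2313 lower, beside 2238 and 2278. It changed no call among the members or these lists. Depth limits KLF5, KLF15, KLF17, and SP6, whose standard errors were the largest of the family.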
